A study of Homo sapiens with 6 samples.

Results

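The mRNAs of 9 human genes of very small proteins were followed through 6 libraries of Ago-RIP-seq, an assay in which the Argonaute protein AGO2 is pulled down from a cell lysate and the RNA bound to it is sequenced. The members are ROMO1, OST4, BBLN, TOMM7, TOMM5, TOMM6, SEC61G, SERF2 and POLR2L, 9 of the 60708 genes counted. They were listed by name. ROMO1, OST4 and BBLN were put on the list for their low values in the AGO2 immunoprecipitate (AGO2-IP) of mimic-transfected cells. They were among the protein-coding genes most reduced there relative to the RNA that the pull-down left behind in the same cells. Their values in that contrast are therefore given as a description with no test. The other 6 were not picked on a value.

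All libraries came from MDA-MB-231, an established human triple-negative breast cancer cell line, given oligonucleotide at 25 nM by transfection and harvested 18 h later. The mimic group received a synthetic miR-99b-5p and was sequenced as 2 AGO2-IP and 2 flow-through (FT) libraries, where the flow-through is the RNA that the pull-down left behind. The control group received a scrambled oligonucleotide and had 1 AGO2-IP and 1 flow-through library, so every control value is without replicates. The fraction of each control library is that of its sample label. The study's own summary of the libraries names both as control replicates and gives neither a fraction, so every ratio with a control library holds only if the labels are right. All libraries are transient transfections of this 1 line, and both groups carried transfected oligonucleotide.

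The counts on genes ran from 7772149 to 48544756 per library, with both control libraries at the low end. The control libraries also had 73.7% to 76.7% of their read pairs mapped to several places, against 2.38% to 19.2% in the mimic libraries, and the share of gene counts on the mitochondrial chromosome was 43.4% in the control flow-through and 3.48% in the control AGO2-IP against at most 0.125% in the mimic libraries. These differences cannot be told apart from the transfected oligonucleotide. Of 7 genes taken as marks of MDA-MB-231, 6 were at 59.0 CPM (counts per 1000000 gene counts) or more in every library, and SPARC lay between 0.298 and 1.73 CPM. Of the luminal and epithelial genes, ESR1, PGR and FOXA1 were at most 0.991 CPM and CDH1 at most 3.96 CPM. EPCAM was at 2.80 to 11.8 CPM and GATA3 at 8.26 to 24.8 CPM, while the keratin KRT19 was at 105 to 417 CPM. The 4 leukocyte markers together held 1.39 to 14.2 CPM.

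Proteins of this size are often single-helix or compact subunits that finish or stabilize a large membrane complex. TOMM5, TOMM6 and TOMM7 are the small subunits of the TOM complex, the entry pore for proteins in the outer mitochondrial membrane, and ROMO1 is an inner-membrane protein associated with the TIM23 import channel. OST4 is the smallest subunit of the oligosaccharyltransferase, which adds N-linked glycans in the endoplasmic reticulum, and SEC61G is the gamma subunit of the SEC61 channel through which nascent proteins enter that compartment. POLR2L is a subunit shared by the nuclear RNA polymerases. SERF2 is a small charged protein known to promote amyloid formation in test-tube systems, and BBLN, bublin, is a coiled-coil protein. AGO2 is guided to mRNAs by microRNAs that pair through their seed, mostly to sites in the 3′ untranslated region.

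The sequences that follow show the microRNA and the size of the reading frames. Mature miR-99b-5p is taken from RefSeq (GRCh38.p14), where it is encoded on the plus strand at chr19:51692618-51692639, and its seed, bases 2 to 8, is in capitals.
miR-99b-5p: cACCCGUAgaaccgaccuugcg
The complete reading frames of the members picked on the contrast, in GENCODE 44 (GRCh38), come from ROMO1 at chr20:35699272-35700984 on the plus strand, OST4 at chr2:27070472-27071654 on the minus strand and BBLN at chr9:128160265-128163924 on the plus strand, where each range is the whole gene. Start and stop codons are in capitals.
ROMO1: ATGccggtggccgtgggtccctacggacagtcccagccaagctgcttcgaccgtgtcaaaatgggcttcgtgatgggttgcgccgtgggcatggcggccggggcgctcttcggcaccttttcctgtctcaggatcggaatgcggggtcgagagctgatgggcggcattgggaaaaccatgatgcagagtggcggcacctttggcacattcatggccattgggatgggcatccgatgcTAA
OST4: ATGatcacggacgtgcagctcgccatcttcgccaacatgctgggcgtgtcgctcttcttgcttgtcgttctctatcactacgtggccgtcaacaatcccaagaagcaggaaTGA
BBLN: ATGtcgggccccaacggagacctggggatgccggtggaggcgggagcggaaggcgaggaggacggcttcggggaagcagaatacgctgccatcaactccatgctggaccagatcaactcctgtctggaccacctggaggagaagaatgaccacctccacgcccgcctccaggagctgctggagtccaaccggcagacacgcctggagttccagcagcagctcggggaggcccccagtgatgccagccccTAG

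The ROMO1 frame encodes 79 amino acids in a canonical transcript of 366 nt with a 3′ untranslated region of 74 nt. The OST4 frame encodes 37 amino acids in 442 nt, the shortest protein of the list. BBLN encodes 83 amino acids in 704 nt, with the highest GC content of the 9 at 67.8%. Of the others, SEC61G has 425 nt and 68 amino acids, TOMM7 434 nt and 55, TOMM6 565 nt and 74, TOMM5 706 nt and 51, and POLR2L 876 nt and 67. SEC61G has the lowest GC content, 37.9%. SERF2 departs from the label of a short mRNA. Its protein has 59 amino acids, but its canonical transcript is 2543 nt long, of which 2306 nt are 3′ untranslated region.

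The letters ACGGGT, which pair with bases 2 to 7 of miR-99b-5p, were searched on the transcript strand only. They occur in the canonical transcript of none of the 9 members. Among the canonical transcripts of all 20046 protein-coding genes 14.9% hold them, but among those under 1000 nt the share is 2.73%, and of the 357 under 500 nt there was not one. Alternative transcripts of OST4 and BBLN do carry the letters, once in the annotated 5′ untranslated region of OST4 (chr2:27071508-27071537, minus strand) and once in BBLN transcripts with no annotated reading frame (chr9:128162220-128162249, plus strand). These windows are shown because they are the members' only matches, with the matched letters in capitals.
OST4 window: cgtggggcgaggACGGGTtcttgcgagggc
BBLN window: tggctctaggcaACGGGTgccctttcctag
A match is a description of the letters and not a site of binding.

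ROMO1, OST4, BBLN, POLR2L and SERF2 were all lower in the AGO2-IP than in the flow-through of mimic-transfected cells, in both replicates. TOMM7 and SEC61G had AGO2-IP values inside the range of the flow-through values. TOMM5 was at 2.10 CPM or less, and TOMM6 had no count in any library. CPM are shares of a library, and in bulk samples fewer cells and less RNA per cell cannot be told apart. The 9 together held 114 and 125 CPM in the mimic AGO2-IP libraries against 801 and 497 CPM in the mimic flow-through, and 138 CPM in the control AGO2-IP against 473 CPM in the control flow-through.

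The AGO2-IP libraries of the mimic held 294 and 160 counts of ROMO1, that is 6.29 and 4.21 CPM. There were 6126 and 7737 counts, 130 and 159 CPM, in the flow-through of the same replicates. All ROMO1 AGO2-IP values were far below all flow-through values, and its mimic flow-through values were also above the 51.6 CPM of the control flow-through. The log2 fold change was -4.87 (SE 0.718), and it was -4.18 in replicate 1 and -5.48 in replicate 2. Counted on each strand, as described further below, it was smaller in size, at -3.24 and -3.02.

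In OST4 the mimic AGO2-IP values were 3.47 and 5.10 CPM and the flow-through values 95.2 and 44.9 CPM. The OST4 flow-through replicates therefore differed more than 2-fold from each other, yet both stood well above the AGO2-IP. The log2 fold change was -3.99 (SE 0.707), and in the order of decreases that the choice of members rests on, next to it stood FAU (-4.04), whose product is cleaved to a ubiquitin-like peptide and a ribosomal protein, before it, and NDUFB11 (-3.96), a respiratory complex I subunit, after it.

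BBLN was at 1.24 and 1.76 CPM in the mimic AGO2-IP, from 58 and 67 counts, and at 32.8 and 33.1 CPM in the flow-through. Its flow-through replicates were nearly equal, with a mean of 33.0 CPM ± 0.194 (SD, n = 2). The log2 fold change was -4.51 (SE 0.762). Between BBLN and OST4 in the order of decreases stood RPS21 (-4.17), a small ribosomal protein of 83 amino acids, and FAU.

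**Figure D1:**
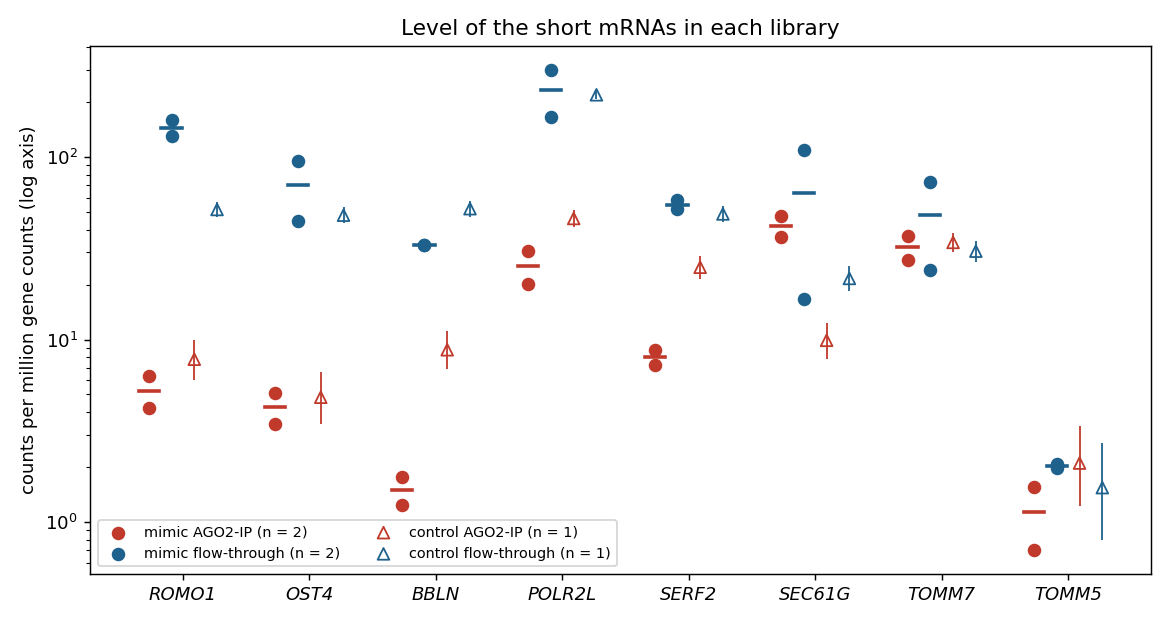
CPM (log axis) of 8 members in each library, with a short line at the mean of 2 mimic libraries. Exact 95% Poisson intervals are drawn on the single control libraries and cover counting error only. ROMO1 lies at 6.29 and 4.21 CPM in the mimic AGO2-IP and at 130 and 159 CPM in the flow-through, whereas SEC61G and TOMM7 have AGO2-IP values between their flow-through values. TOMM6, at 0 in all libraries, has no place on a log axis.

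Of the 5 members with enough counts that were not picked on the contrast, none passed the test in the edgeR quasi-likelihood fit, where 54 of 13078 genes (0.413%) were called lower. At an unadjusted p under 0.05 with a lower AGO2-IP the count was 2 of 5, where 13.1% of all genes passed, and PyDESeq2 also called 2, where it called 8.4% of all genes lower. Called means that the log2 fold change was 1 or more in size, with a Benjamini-Hochberg adjusted p of at most 0.05 over all genes tested. With the replicate number as a block, POLR2L and SERF2 passed, 2 of 5, where 664 of all genes (5.08%) were called lower. In POLR2L, SERF2 and TOMM5 both AGO2-IP libraries lay below both flow-through libraries, a pattern held by 28.5% of all genes tested. A log2 fold change of -1 or less was held by 2 of these 5 members, whose median was -0.90. Among genes of proteins of at most 100 amino acids the share was 48.9% and the median -0.90. For those with a transcript under 1000 nt, which leaves out SERF2, the values were 61.1% and -1.46. By that measure these members were no lower, as a set, than genes of like size.

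POLR2L was at 20.1 and 30.4 CPM in the mimic AGO2-IP and at 300 and 165 CPM in the flow-through. Every AGO2-IP value was below every flow-through value. The log2 fold change was -3.18 (SE 0.647) with an adjusted p of 0.0529 in edgeR, and an adjusted p of 0.00247 with the replicate block.

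SERF2 was at 7.21 and 8.78 CPM in the mimic AGO2-IP against 58.0 and 51.8 CPM in the flow-through, and the replicates of each fraction lay close together. Its log2 fold change of -2.82 (SE 0.660) was nearly the same in replicate 1 (-2.82) and replicate 2 (-2.81). The adjusted p was 0.0630 in edgeR and 0.00908 with the replicate block.

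TOMM7 had 27.4 and 37.0 CPM in the mimic AGO2-IP and 72.7 and 23.9 CPM in the flow-through, so that its groups overlapped. The log2 fold change was -0.51 (SE 0.649, edgeR adjusted p = 0.653), from -1.23 in replicate 1 and 0.37 in replicate 2. SEC61G behaved alike, with 47.4 and 36.5 CPM in the AGO2-IP and 110 and 16.6 CPM in the flow-through. Its log2 fold change was -0.46 (SE 0.741, edgeR adjusted p = 0.728), from -1.03 in replicate 1 and 0.88 in replicate 2. In both genes the replicates pointed in opposite directions, and without mimic flow-through replicate 1 the fold changes were 0.149 and 1.05.

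TOMM5 had 33 and 59 counts in the AGO2-IP and 93 and 101 in the flow-through of the mimic, or 0.706, 1.55, 1.98 and 2.08 CPM. Its log2 fold change was -0.90 (SE 0.843, edgeR adjusted p = 0.531). TOMM6 had 0 counts in all 6 libraries, where 3 counts would be 0.0618 to 0.386 CPM. In the annotation all 565 nt of the TOMM6 transcript lie in exons of another gene on the same strand (ENSG00000124593), and 81.9% of TOMM5 lies in exons of same-strand genes that read through it. The deposited counting keeps only pairs that fall in a single gene, so the low values of TOMM5 and TOMM6 say nothing of the mRNA level.

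The flow-through replicates differed along base composition across all genes, and less evenly among the members. Between mimic flow-through replicates 2 and 1 the log2 difference was -2.23 for SEC61G, the member lowest in GC, and 0.51 for BBLN, the highest. It was -1.11 for TOMM7, -0.59 for OST4, 0.33 for SERF2 and 0.78 for ROMO1. TOMM5, low in GC at 43.9%, was at 0.56, and POLR2L, high in GC at 59.4%, at -0.37, so these 2 ran the other way. Over 11747 protein-coding genes, not independent of each other, this difference had a Spearman's rho of 0.755 with transcript GC content. With each library's trend on GC content removed, the mimic log2 fold change of BBLN was -3.20 in place of -4.51. ROMO1 was then at -4.07, OST4 at -3.96, TOMM7 at -0.53, SEC61G at -1.0 and TOMM5 at -1.50, and none of TOMM7, SEC61G and TOMM5 passed. In that fit POLR2L (-2.46, adjusted p = 0.0492) and SERF2 (-2.76, adjusted p = 0.0276) passed in edgeR.

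The control libraries, which were not used to choose members, gave a second reading of AGO2-IP over flow-through. It was lower in the AGO2-IP for all 7 members with enough counts, and 6 of these 7 had a log2 ratio of -1 or less, where 18.1% of all 8245 genes did. The share was much higher among genes of like size. It was 80.3% of protein-coding genes with a transcript under 500 nt and 67.8% from 500 to 750 nt. Of genes of proteins of at most 100 amino acids with a transcript under 1000 nt it was 74.0%, so the members' count is near that of such genes. The median over the 7 members was -3.13, beside 0.01 over all genes. Of the 4 members not picked on the mimic contrast 3 were at -1 or less, with a median of -1.92. The picked members are not free of that choice here, since across 8106 protein-coding genes the mimic and control values had a Spearman's rho of 0.556. With library size in place of TMM normalization (trimmed mean of M values) the median of all genes was 0.91, and the share of genes at -1 or less was 4.92%. The members' median was then -2.23, with 5 of the 7 at -1 or less and TOMM7 above 0, at 0.17. There is no test, because each control fraction is a single library.

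OST4 had the lowest control ratio, -4.12, from 4.83 CPM (exact 95% Poisson interval 3.43 to 6.60) in the AGO2-IP and 48.0 CPM (43.2 to 53.1) in the flow-through. ROMO1 followed with -3.56, from 7.80 CPM (5.99 to 9.98) and 51.6 CPM (46.7 to 56.9). BBLN had a ratio of -3.41, from 8.79 CPM (6.87 to 11.1) and 52.1 CPM (47.2 to 57.4). In each gene the AGO2-IP interval lay far below the flow-through interval. The intervals cover counting error only and do not include the spread between cultures.

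POLR2L, at 46.1 CPM in the control AGO2-IP and 219 CPM in the flow-through, had a ratio of -3.13. SERF2, at 24.9 and 48.8 CPM, had -1.85, or -0.95 with library size alone. SEC61G, which had overlapping groups in the mimic, was at 9.91 CPM in the control AGO2-IP and 21.6 CPM in the flow-through, a ratio of -1.98. TOMM7 was nearly level, at 275 and 237 counts, with a ratio of -0.73 that turned to 0.17 with library size alone. TOMM5, with 17 and 12 counts, was left out.

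**Figure D2:**
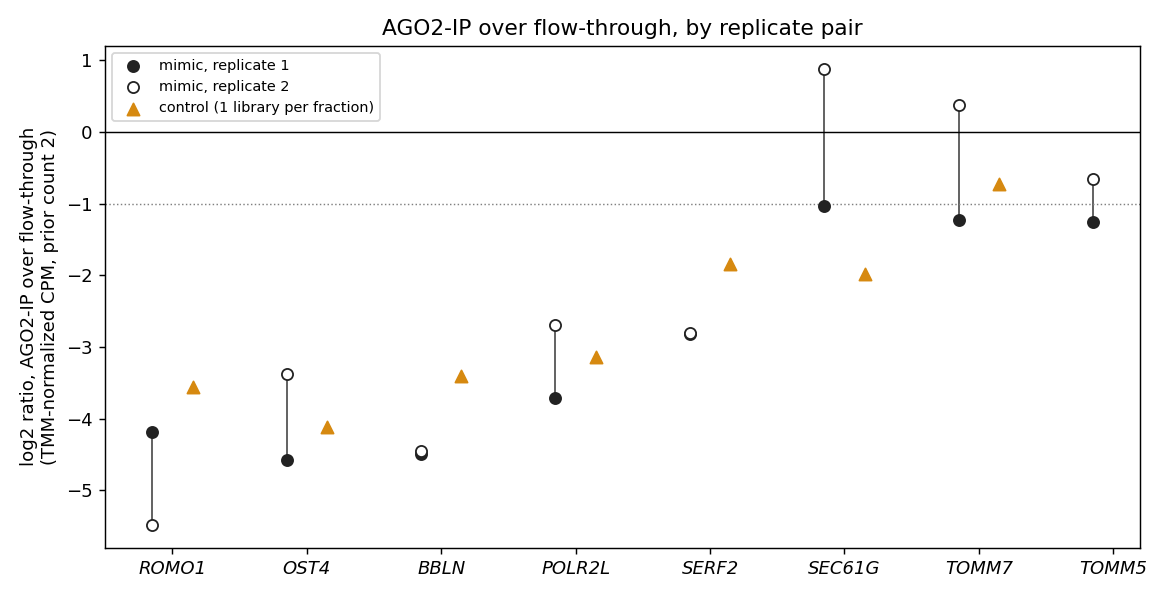
Log2 ratio of AGO2-IP over flow-through for 8 members. Filled and open circles are mimic replicates 1 and 2, triangles are the single control pair, and the dotted line is at -1. ROMO1, OST4, BBLN, POLR2L and SERF2 lie below -1 in all 3 pairs (SERF2 in the control is at -0.95 with library size alone), while SEC61G and TOMM7 lie on both sides of 0 in the mimic.

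Set against the control of the same fraction, the members did not move together. In the AGO2-IP 1 of 6 members, SERF2, had a mimic over control log2 ratio of -1 or less, where 17.4% of all genes did. SERF2 had a ratio of -1.50, from -1.67 and -1.33 for the 2 mimic libraries. POLR2L had -0.76, ROMO1 -0.46, OST4 -0.06 and TOMM7 0.04. With the GC trend removed ROMO1 and OST4 turned to 0.16 and 0.04, and POLR2L was at -0.05. BBLN, with under 200 counts over these 3 libraries, was left out. It had 8.79 CPM in the control AGO2-IP against 1.24 and 1.76 CPM in the mimic.

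SEC61G stood at the other end, at 2.20, from 2.36 and 2.03 for the 2 mimic libraries, beside a median of 0.02 over all genes. Its control AGO2-IP level of 9.91 CPM (exact 95% Poisson interval 7.85 to 12.3) lay below both mimic values of 47.4 and 36.5 CPM. After the GC step described above the SEC61G ratio was 1.35.

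In the flow-through 1 of 8 members, ROMO1, reached a mimic over control value of 1 on the log2 scale, where 10% of all genes did. Its ratio of 1.01 came from 0.61 and 1.42 for the mimic libraries. BBLN was at -1.13, from -1.39 and -0.86. SEC61G was at 0.51, with 1.61 and -0.59 for its 2 mimic libraries, and POLR2L, SERF2, OST4, TOMM7 and TOMM5 lay between -0.45 and -0.02. The same control libraries enter these ratios and the control ratios above, so the values are not independent of each other.

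Levels of different genes are compared per length, as CPM per kb of canonical transcript from unstranded counts. The places of SERF2 and TOMM5 in this order are not settled, since summing both strand columns gave 4.34 to 4.57 times the SERF2 count in the mimic flow-through and TOMM5 loses pairs to same-strand genes. In the mimic flow-through ROMO1 was the highest at 396 ± 56.1 CPM per kb (SD, n = 2), followed by POLR2L at 266 ± 109, OST4 at 158 ± 80.5, SEC61G at 149 ± 155 and TOMM7 at 111 ± 79.5. From POLR2L to TOMM7 the ranges of neighbours overlapped. BBLN, at 46.8 ± 0.275, SERF2, at 21.6 ± 1.74, and TOMM5, at 2.87 ± 0.102, were each lower than the member before them in both libraries, except that BBLN overlapped SEC61G, whose lower value was 39.1.

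In the mimic AGO2-IP the order was different. SEC61G was highest at 98.7 ± 18.2 CPM per kb, with TOMM7 at 74.1 ± 15.6 just below it and within 1 CPM per kb of overlapping it. POLR2L followed at 28.8 ± 8.31 and ROMO1, first in the flow-through, was at 14.3 ± 4.02. OST4, at 9.69 ± 2.62, overlapped ROMO1. SERF2 (3.14 ± 0.438), BBLN (2.13 ± 0.524) and TOMM5 (1.60 ± 0.847) were lowest. Here too the unstranded counts limit the order, since the sum of the strand columns was 5.65 and 6.82 times the SERF2 count and 3.51 and 4.04 times the ROMO1 count. In the control flow-through POLR2L led at 250 CPM per kb and ROMO1 had 141, while in the control AGO2-IP TOMM7 led at 78.5.

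Unstranded counting left out many pairs of some members, because it drops a pair that lies on exons of genes on both strands. Summing the counts of both strand columns gives these pairs back. For SERF2 the sum was 3.58 to 6.82 times the unstranded count in the 6 libraries. In mimic flow-through replicate 1, for example, SERF2 had 2727 unstranded counts and 12469 over both strands, a surplus of 9742, and MIR1282, a microRNA gene on the opposite strand that shares 50 nt with the canonical transcript, had a surplus of 9179 there. The unstranded count thus held a minority of the pairs on SERF2 exons. Exons of SERF2 outside its canonical transcript also share 4329 nt with HYPK on the same strand. Pairs that lie on both genes are in neither sum, and HYPK held at most 5 counts in any library. Its mimic log2 fold change was -2.37 and -2.39 in the strand columns and its control ratio -2.05 and -1.95.

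For ROMO1 the sum was 3.51 and 4.04 times the unstranded count in the mimic AGO2-IP, but 1.07 times in both mimic flow-through libraries. The surplus of 738 pairs in mimic AGO2-IP replicate 1 was matched by 736 pairs of NFS1, the cysteine desulfurase gene on the opposite strand, and in the other 5 libraries the surpluses of ROMO1 and NFS1 were the same number. Alternative exons of ROMO1 share 84 nt with exons of NFS1, and the canonical ROMO1 transcript shares none. On the strand columns, which hold these pairs, the mimic log2 fold change of ROMO1 was -3.24 and -3.02 in place of -4.87, and its control ratio -2.89 and -2.94 in place of -3.56. ROMO1 and NFS1 cannot be told apart in these pairs.

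Relative to the unstranded count, the largest surplus was smaller for each of the others. The sum over unstranded counts was 1.01 to 1.67 for OST4, whose transcript shares 34.2% of its length with AGBL5 on the opposite strand, and 1.01 to 2.14 for BBLN, which lies opposite CIZ1. For POLR2L, opposite the tetraspanin gene CD151, it was 1.13 to 1.96. On the 2 strand columns the mimic log2 fold change was -3.81 and -3.82 for OST4, -3.76 and -3.91 for BBLN, and -2.98 and -3.02 for POLR2L. TOMM7 and TOMM5 had no surplus and SEC61G at most 5 pairs. Annotated processed pseudogenes of SEC61G and POLR2L held 0 and 1 counts in all libraries together.

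**Figure D3:**
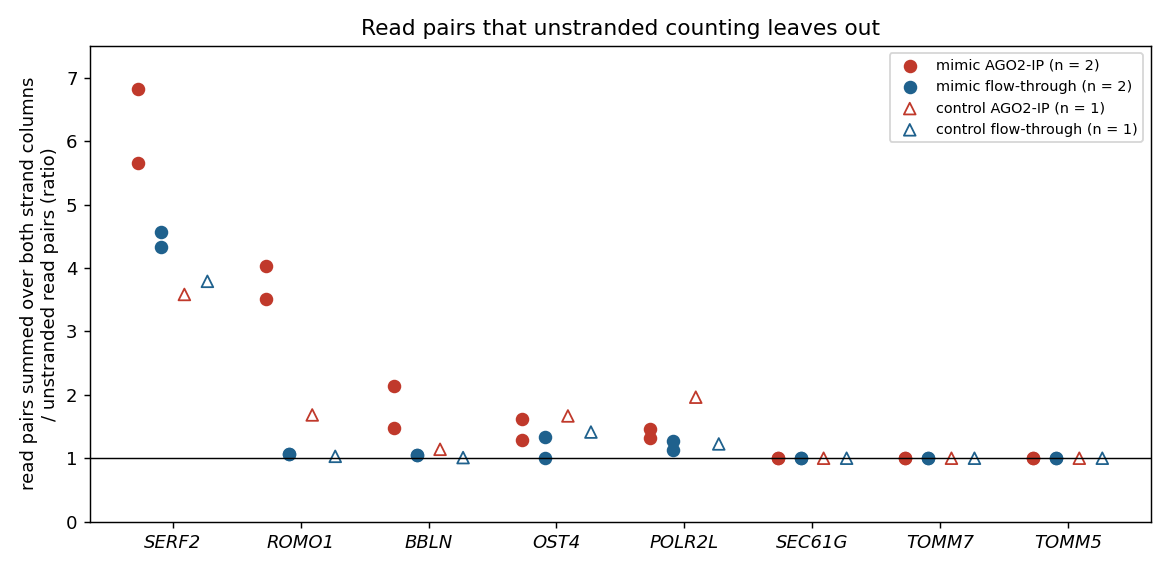
Read pairs summed over both strand columns divided by unstranded read pairs, for 8 members in each library. At 1, unstranded counting left out no pair for a gene on the opposite strand. Pairs lost to same-strand genes do not show here. SERF2 lies between 3.58 and 6.82 in all libraries, and ROMO1 at 3.51 and 4.04 in the mimic AGO2-IP but near 1 in every flow-through library.

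The members were then set beside all protein-coding genes of like transcript length. Genes with shorter canonical transcripts had lower AGO2-IP over flow-through values in mimic and control. In the mimic the median log2 fold change was -1.68 over 79 genes under 500 nt, -1.52 from 500 to 750 nt, -1.21 from 750 to 1000 nt, -0.70 from 1000 to 2000 nt, -0.13 from 2000 to 4000 nt and 0.32 at 4000 nt and over. The control pair gave -1.74 over 61 genes under 500 nt, -1.53, -0.97, -0.30, 0.04 and 0.18 in the same classes. Across genes Spearman's rho of length with the value was 0.304 in the mimic and 0.199 in the control, given as a description since genes share libraries and are not independent. Transcript GC content had a larger rho in the mimic, -0.545, and one of the other sign in the control, 0.129.

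Within these classes the members spread widely. ROMO1 and OST4 lay below the lower quartile of the genes under 500 nt in the mimic (-2.80) and the control (-2.58), whereas TOMM7 lay above the upper quartile in both (-0.82 and -1.13). SEC61G lay above the upper quartile in the mimic and between the lower quartile and the median in the control. BBLN was below the lower quartile of its class in the mimic (-2.33) and the control (-2.36), and POLR2L likewise (-2.05 and -1.72). SERF2, among transcripts of 2000 to 4000 nt, was below the lower quartiles of -1.08 and -0.61. The choice of ROMO1, OST4 and BBLN fixed their place in the mimic, and their place in the control pair, in libraries the choice did not use, is not independent of it either.

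With each library's trend on transcript length removed, the mimic log2 fold changes were -3.79 for ROMO1, -3.59 for BBLN and -2.85 for OST4, and no gene of the 13078 was called lower. TOMM7, SEC61G and TOMM5 were then at 0.68, 0.84 and 0.01, on the other side of 0. POLR2L stayed lower at -2.34 (edgeR adjusted p = 0.0955) and SERF2 at -2.69 (edgeR adjusted p = 0.0823). In the control pair ROMO1 was at -1.38, OST4 at -2.19, BBLN at -2.12, POLR2L at -2.13 and SERF2 at -1.88 after the same step. SEC61G was at 0.00 and TOMM7 at 1.22, and the members' median was -1.88.

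The genes of small proteins were also split by transcript length. Over 223 genes of proteins of at most 100 amino acids the mimic median was -0.90. It was -1.46 for the 108 of them with a transcript under 1000 nt and -0.51 for the 115 with a longer transcript. In the control the corresponding medians were -1.35, -1.70 and -1.0, against 0.01 for all protein-coding genes.

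**Figure D4:**
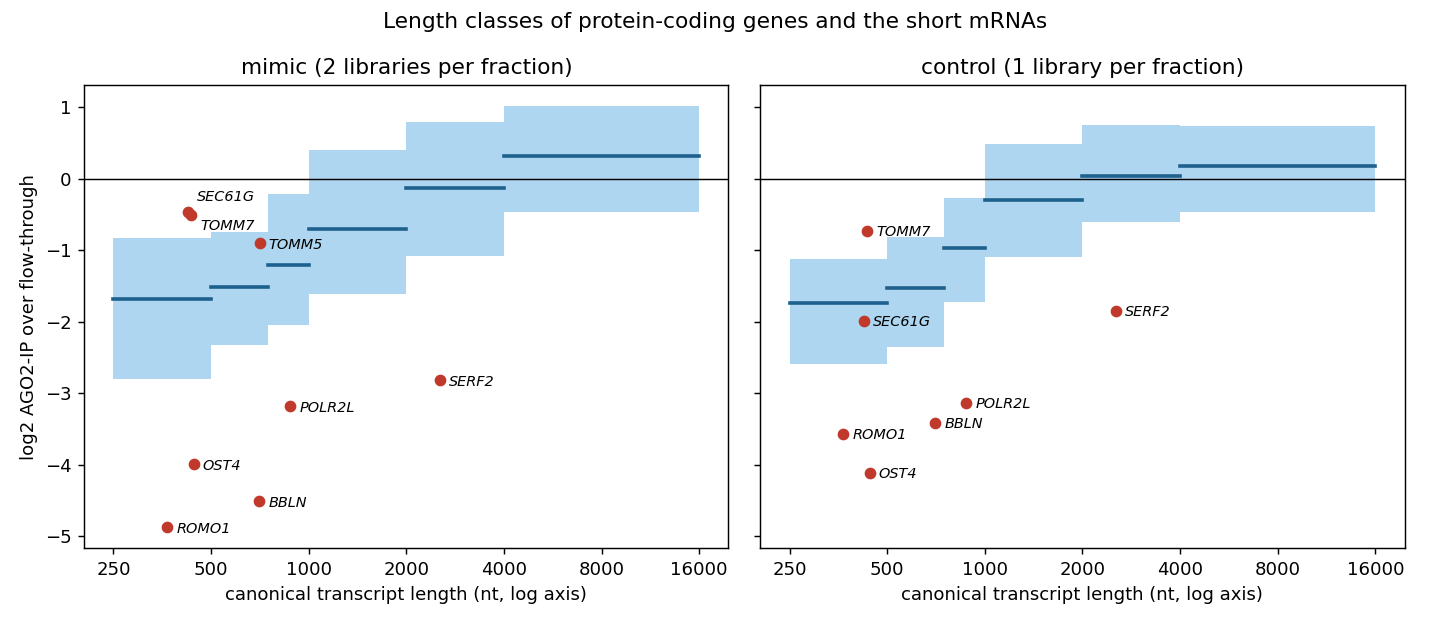
Log2 AGO2-IP over flow-through by canonical transcript length (log axis) in the mimic and the control, with lines at the medians and bands from the lower to the upper quartile of the protein-coding genes in each length class, whose outermost edges are drawing limits. Points are the members; ROMO1 at -4.87 and -3.56 and OST4 at -3.99 and -4.12 lie below the bands in both panels, and TOMM7 at -0.51 and -0.73 above them.

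The members were also set beside their partners in the complexes they belong to, together with the small TIM chaperones, a list of 6 that holds no member. Over the 54 listed genes that are not members, 50 could be tested, none was called in edgeR, and the median mimic log2 fold change was -0.20. At an unadjusted p under 0.05 there were 9 lower and 5 higher of the 50, where 13.1% and 10.6% of all genes were. PyDESeq2 called 8 lower and 4 higher, where it called 8.4% and 6.59% of all genes. With the replicate block 6 were called lower and 2 higher, where 5.08% and 4.6% of all genes were. The 11 tested genes with a transcript under 1000 nt had a median of -1.31 and the 39 longer ones -0.09.

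In the TOM complex no gene was called in either fit. The receptor TOMM70 was higher in both AGO2-IP libraries (log2 fold change 1.89, adjusted p = 0.115 in edgeR), and the pore subunit TOMM40 was lower in both (-1.95, adjusted p = 0.118). In the TIM23 complex the channel subunit TIMM17A was at 2.39 (adjusted p = 0.0934, 0.0166 with the replicate block) and the receptor subunit TIMM50 at -2.52 (0.0731, 0.0191 with the block), the opposite of each other. The small TIM chaperones of the intermembrane space, which are also tiny proteins, ran from -2.45 for TIMM9 to 1.63 for TIMM10, and none was called in either fit.

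The oligosaccharyltransferase had no other subunit called. DDOST was lowest at -1.32 (edgeR adjusted p = 0.211), and the catalytic subunit STT3A highest at 0.59 (adjusted p = 0.596). TMEM258, a small subunit singled out after its values were seen because its transcript of 578 nt is near that of OST4, was at -1.31 (adjusted p = 0.289) in the mimic and -1.32 in the control. OST4 at -3.99 and -4.12 was thus well below every other tested subunit in both, the mimic value being one it was picked for. KRTCAP2, with a transcript of 523 nt, had at most 1.07 CPM in any library and was not tested.

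In the SEC61 translocon SSR4, a subunit of the translocon-associated protein complex with a transcript of 608 nt, was at -3.42 (edgeR adjusted p = 0.0543, 0.00202 with the replicate block) and at -2.99 in the control pair. SEC61A2 was highest at 0.34. SEC61B, the other tail-anchored subunit beside SEC61G, was looked at after its values were seen. It was at -1.67 (adjusted p = 0.194) in the mimic and -1.71 in the control, where SEC61G had -0.46 and -1.98.

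RNA polymerase II had the most genes called with the replicate block apart from POLR2L, with 4 lower and 1 higher of 11. POLR2J (-3.56, block adjusted p = 8.14e-04), POLR2E (-2.86, 0.00912), POLR2C (-2.49, 0.0233) and POLR2I (-2.43, 0.0350) fell in that fit, and all were above the threshold without the block (0.0543 to 0.117). POLR2B, the second largest subunit, was the exception at 2.80 (0.0625 in edgeR, 0.00660 with the block). Its CPM was 404 and 642 in the AGO2-IP against 111 and 44.9 in the flow-through. POLR2K, also a very small subunit and singled out after its values were seen, had overlapping groups in the mimic at -1.49 (adjusted p = 0.315) and -3.15 in the control. Of the SERF family, SERF1A was at 0 in all libraries and SERF1B at most at 2.49 CPM, so neither was tested.

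**Figure D5:**
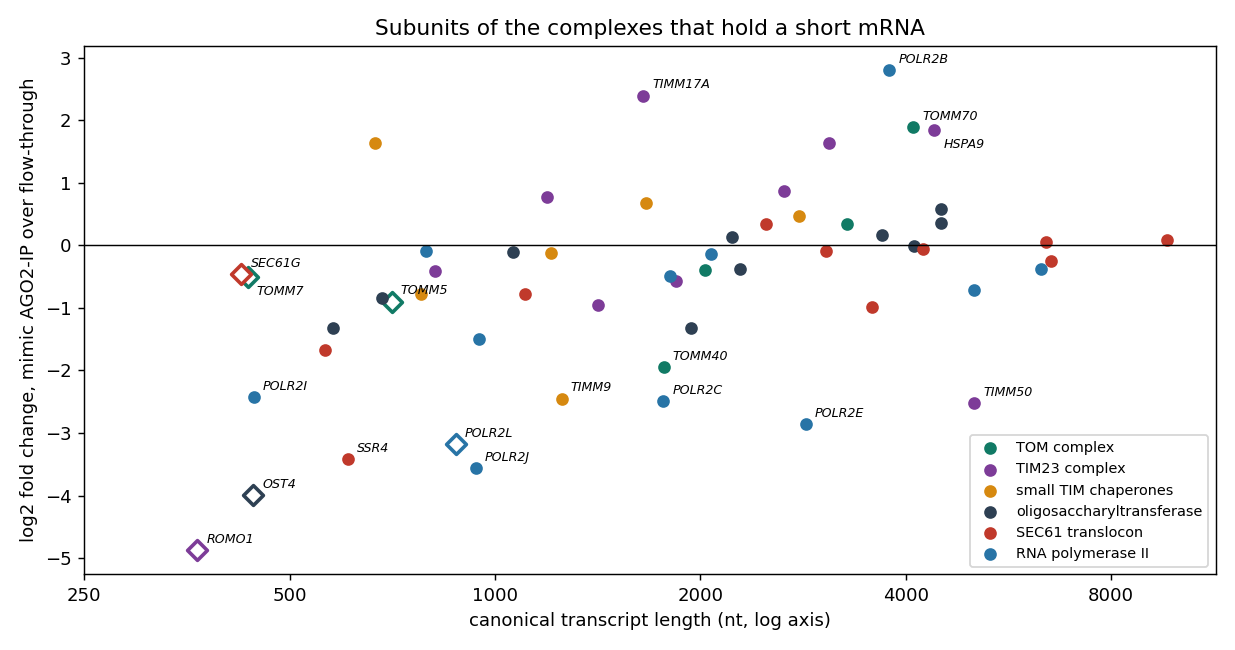
Mimic log2 fold change of AGO2-IP over flow-through against canonical transcript length (log axis) for the tested subunits of the complexes that include a member and the small TIM chaperones. Diamonds are members and circles the other subunits, coloured by complex; SSR4 (-3.42) and POLR2J (-3.56) lie near POLR2L (-3.18), and POLR2B is highest at 2.80.

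The median of the members' profiles, log2 CPM centred for each gene over the 6 libraries, ran from -1.95 in mimic AGO2-IP replicate 1 to 1.5 in mimic flow-through replicate 1. Of 11890 protein-coding genes, RPLP1, a ribosomal stalk protein, was most like it, with a root mean square difference of 0.130 over the 6 libraries. NABP2, a single-stranded DNA binding protein (0.141), the cyclin CCNI (0.162) and the elongin subunit ELOB (0.198) came next. The CCNI transcript is 2759 nt long and those of NABP2 and RPLP1 1400 and 1174 nt, so the genes most like the profile were not all short transcripts. ROMO1, OST4 and BBLN, picked for their fall in the mimic AGO2-IP, enter the profile. Its shape in the mimic libraries is therefore partly fixed by that choice. Of the members themselves POLR2L (0.220) and SERF2 (0.314) were nearest to the median profile and SEC61G (1.65) and TOMM7 (1.25) farthest.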

How the data were processed

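Per the submitters' processing notes, the authors used FastQC 0.11.9 on the reads, cutadapt 3.5 for trimming and STAR 2.7.11b for alignment to GRCh38 and for the count of read pairs per gene. The Ensembl release is not given in the sources used here. The deposited values are raw counts, unstranded (used here) and per strand; only pairs mapped to 1 place and 1 gene are counted. Rows that name no gene held 21.4% to 95.0% of a library's pairs and were left out.

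Mimic fractions were compared with edgeR 4.0.16 (R 4.3.3; TMM, glmQLFTest) over 13078 genes with at least 200 summed counts. SE is the fold change divided by the square root of F. Comparisons with control libraries are given as untested log2 ratios (TMM, prior count 2), with the same minimum. The labels number mimic biological replicates across fractions. Over 13078 genes, libraries of 1 number deviated together from the group mean (Pearson's r 0.324, Spearman's rho 0.236). With 2 replicates per fraction, renumbering 1 fraction would only turn the sign, so this cannot show that the numbers pair the fractions. The pairing rests on the labels alone, and the blocked value stands beside the results it changes. The labels and methods call the mimic replicates biological and independent, without naming separate cultures.

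Transcripts and overlaps are from GENCODE 44, which named 60463 of 60708 identifiers; lengths are of the canonical transcript. The members and lists were chosen with earlier results of these data known. Genes named beside the members are each complex's highest and lowest and those called, overlapping genes and annotated copies, the 5 most alike in profile (1 of which is not reported here) and the neighbours in the order of decreases. Alternatives were PyDESeq2 0.5.4, other normalizations, filters, strand columns, GC and length trends (lowess span 0.2), depth and left-out libraries. Code was tested on simulated data.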

Additional observations from a re-analysis of the deposited data

How the results depend on the processing

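The number of genes called lower in the mimic contrast depended strongly on the processing. The 54 genes became 664 with the replicate block, 1658 with the replicate block and the GC trend removed, 1077 with PyDESeq2 (254 genes had no adjusted p), 35 with library size alone, 33 with the size factors of DESeq2, 86 and 204 with a summed count of at least 10 and with no filter, 371 with 200 counts in every library, 28 and 12 in the strand columns, 0 with protein-coding genes only (1603 at an unadjusted p under 0.05), 309 with the GC trend removed, 0 with the length trend removed (1492 at an unadjusted p under 0.05), 113 after thinning and 4 at an adjusted p of 0.01. Leaving out 1 library gave 21 to 2416, the highest without mimic flow-through replicate 1. Of the 5 members not picked on the contrast, the 0 called became 2 (POLR2L and SERF2) with the replicate block, with and without the GC step, with PyDESeq2, with 200 counts in every library and with the GC trend removed, 1 (POLR2L) with no filter and after thinning, and 0 to 2 with 1 library left out, 2 without either flow-through library. The block changed no other member's call. With the length trend removed TOMM7 reversed to 0.682, SEC61G to 0.836 and TOMM5 to 0.0135. With 1 library left out TOMM7 ranged from -0.967 to 0.149 and SEC61G from -1.19 to 1.05, the high values being those without mimic flow-through replicate 1 and the low ones those without replicate 2.

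The members' control median of -3.13 moved to -2.23 with library size alone, -2.76 and -2.68 in the strand columns and -1.88 with the length trend removed. Mimic over control AGO2-IP had a median of -0.263, which moved to -0.405 with library size alone, to 0.0754 with the GC trend removed, and ranged from -0.286 to -0.0999 with 1 mimic library left out, with 1 to 2 members at -1 or less. Mimic over control flow-through had a median of -0.0482, which moved to 0.413 with library size alone and ranged from -0.433 to -0.00908 with 1 mimic library left out, and its 1 member at 1 or more, ROMO1, became 0 with DESeq2's size factors, with the GC trend removed and with mitochondrially encoded genes left out. With library size alone the control medians of genes of 4000 nt and over and of small proteins were 1.08 and -0.456, in place of 0.18 and -1.35. The causes were not tested. Depth limits TOMM5 and, in the AGO2-IP, BBLN, with at most 101 and 71 counts there.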
